A study of Mus musculus with 9 samples.

Results

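The 34 genes described here make cholesterol and fatty acids, control that synthesis, or move sterol inside and out of the cell. They were chosen by symbol, and all 34 were found among the 22017 gene symbols of an FPKM table (fragments scaled to transcript length and to the library's mapped fragments). By role, 7 encode enzymes of the mevalonate pathway, 11 enzymes from squalene to cholesterol, 5 the SREBP control system, 5 sterol transport or efflux, and 6 fatty acid synthesis. The first 18, from both enzyme groups, are called sterol synthesis enzymes below. The study sequenced messenger RNA from 9 samples of wild-type C57BL/6 mouse spleen T cells, 3 in each of 3 groups, taken on day 10. All cells were activated through CD3 (5 ug/mL antibody) and CD28 (1 ug/mL) for 3 days (doses as in the sample labels, where the series text writes mg), were fed IL-2 (100 U/mL) from day 5, and on day 7 met both antibodies again at 0.05 ug/mL each. Th17-derived Th1 cells (labelled Th17-1) were begun under the Th17 condition and met the Th1 condition at the second activation. Th1 cells (labelled Th1-1) were induced with IL-12 at 10 ng/mL and an antibody against IL-4. Th17 cells (labelled Th17-17) were induced with TGF-beta at 1 ng/mL, IL-6 at 20 ng/mL and IL-1beta at 10 ng/mL, with interferon-gamma, IL-12 and IL-4 blocked by antibodies. The series text calls the starting T cells naive. The labels record their isolation from spleen and no second sort of the cultured cells before RNA was taken.

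Cholesterol is built from acetyl-CoA, first into mevalonate and isoprenoid units, which also serve protein prenylation, then into squalene, lanosterol and the later sterols. When the sterol content of the endoplasmic reticulum is low, SCAP carries the SREBP transcription factors to the Golgi, where they are cut free to switch on the genes of this pathway, and INSIG proteins hold them back when sterol is plentiful. Excess sterol, in the form of oxysterols, instead activates LXR receptors, whose targets include Abca1, Abcg1, Mylip and Apoe. Activated T cells are known to raise lipid synthesis as they grow, and sterol intermediates of the distal pathway are known ligands of RORgamma-t, the transcription factor that defines Th17 cells.

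Start-site sequence is shown for 3 genes on which the results turn: Hmgcs1 holds the only match, among the 27 genes searched, to the core of the sterol regulatory element, Msmo1 was the only gene called in 2 comparisons that both set it higher, and Abca1 had the largest difference of all 34. The last 2 were picked after their values were seen. Each sequence runs 5′ to 3′ from 250 bases before to 50 after the start site, from RefSeq on GRCm38.p6, at chr13:119690101-119690400 on the plus strand for Hmgcs1, chr8:64733529-64733828 on the minus strand for Msmo1 and chr4:53159846-53160145 on the minus strand for Abca1. Capitals mark matches, on either strand, to the letters TCACNCCAC (the core of the sterol regulatory element), CCAAT (the NF-Y box), GGGCGG (the Sp1 box) and CACGTG (the E box), and no marked matches overlap.
Hmgcs1: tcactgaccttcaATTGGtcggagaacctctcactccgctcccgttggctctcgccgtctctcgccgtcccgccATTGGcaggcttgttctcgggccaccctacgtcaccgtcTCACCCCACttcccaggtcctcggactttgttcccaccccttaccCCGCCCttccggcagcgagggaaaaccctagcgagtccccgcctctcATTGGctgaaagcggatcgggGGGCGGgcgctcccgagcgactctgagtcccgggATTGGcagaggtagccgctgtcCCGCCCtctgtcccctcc
Msmo1: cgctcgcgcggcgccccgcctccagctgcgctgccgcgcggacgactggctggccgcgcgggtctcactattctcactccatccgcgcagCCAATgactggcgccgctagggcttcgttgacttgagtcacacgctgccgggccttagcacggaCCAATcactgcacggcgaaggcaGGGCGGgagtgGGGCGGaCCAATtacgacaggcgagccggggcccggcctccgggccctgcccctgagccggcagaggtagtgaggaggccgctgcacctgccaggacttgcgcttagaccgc
Abca1: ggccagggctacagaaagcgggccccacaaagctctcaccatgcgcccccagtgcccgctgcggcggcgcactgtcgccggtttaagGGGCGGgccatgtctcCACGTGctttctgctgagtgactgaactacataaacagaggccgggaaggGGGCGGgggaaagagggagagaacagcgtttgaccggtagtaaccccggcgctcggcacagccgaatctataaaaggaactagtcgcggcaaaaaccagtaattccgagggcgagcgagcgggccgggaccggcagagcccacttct
Start-site sequence was given for 27 of the 34 genes, and Fdps, Fdft1, Sqle, Stard4, Abcg1, Scd1 and Scd2 had no entry. In Hmgcs1 the sterol regulatory element match begins at position -137 from the start site, and it is 1 of 27 genes (3.70%) with such a match, against 1.44% of the 27025 genes with an entry. The NF-Y letters occur in 21 of the 27 genes (77.8%), against 41.1% of all genes, and the Sp1 letters in 22 (81.5%), against 38.2%. The E box letters occur in 6 (22.2%), against 8.09%. The shares of all genes take in every gene with an entry, expressed or not, whereas all 34 genes were expressed highly enough to be tested. No share was taken over the tested genes alone. Some genes have several windows (37 for the 27 genes, 32851 for the 27025), and a match is a description of the letters only.

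Libraries summed to 382581 to 405985 FPKM and had 13374 to 14063 genes above 0, and the read depth behind them is unknown, so no counting error is given. Replicates correlated at 0.964 to 0.993 across the tested genes, which are not independent, and 0 pairs of columns were identical. Whether replicates were separate animals or cultures is not stated in the labels, so p-values measure the spread between these samples only. T cell markers were high in every library (the sum of 6 such genes was 874 to 1134 FPKM). Cd8a and Cd8b1 were present in all of them, summing to 25.5, 41.1 and 152 FPKM in Th17-derived Th1 replicates 1, 2 and 3, 19.8, 26.8 and 170.5 FPKM in Th1 and 50.8, 79.0 and 203 FPKM in Th17, so that replicate 3 was highest in each group. B cell markers (4 genes) summed to 1.17 to 2.38 FPKM in Th17-derived Th1, 0.844 to 2.08 FPKM in Th1 and 2.95 to 4.01 FPKM in Th17. NK cell markers (2 genes) summed to 0.117 to 0.496 FPKM in Th17-derived Th1, 0.337 to 1.3996 FPKM in Th1 and 3.11 to 7.19 FPKM in Th17. Both sums were thus highest in Th17, the group in which most sterol enzymes were lowest. The tested gene of each set was called lower than in Th17 both in Th17-derived Th1 (limma adjusted p = 0.0144 for Cd79b and 0.00239 for Klrb1c) and in Th1 (limma adjusted p = 0.00804 and 0.00502), while Ms4a1 and Ncr1 did not exceed 0.0652 and 0.0571 FPKM in any library. Klrb1c did not exceed 0.496 FPKM in Th17-derived Th1. Both tested genes met the filter for testing (1 FPKM in 3 or more libraries) only with their Th17 libraries. With such values in the other groups, they could enter the test only by reaching 1 FPKM in Th17. The part of B and NK cells in the differences below was not tested. Cd4 had 91.1, 86.8 and 96.9 FPKM in Th17-derived Th1 replicates 1, 2 and 3. It had 124, 81.1 and 57.1 FPKM in Th1 and 97.5, 88.1 and 52.9 FPKM in Th17. Replicate 3 was thus lowest for Cd4 in Th1 and in Th17, and highest in Th17-derived Th1. Where 3 values of a group are listed below, they stand in the order of replicates 1, 2 and 3. Differences are in log2(FPKM + 1), and fold changes are on that scale, which understates changes of low genes.

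Most calls among the sterol synthesis genes fell between Th1 and Th17 cells. Of the 18 enzymes, 13 were higher in Th1 cells and 0 lower, at limma's Benjamini-Hochberg adjusted p below 0.05 over 10538 tested genes. Across all 34 genes 14 were higher and 1 lower, where 14% of all tested genes were called higher and 28.9% lower in Th1. The median log2 difference of the enzymes was 0.53 and that of all 34 genes 0.37, against -0.17 over all tested genes. Summed over the 18 enzymes, Th17-derived Th1 libraries held 530.4, 477 and 599 FPKM, Th1 libraries 603, 563 and 652 FPKM, and Th17 libraries 355, 341 and 527 FPKM. Both Th17 replicates 1 and 2 lay below every other library, while Th17 replicate 3 lay among the Th17-derived Th1 values. The mean sum in Th1 was 1.49 times that in Th17. In bulk RNA, fewer cells that express a gene and less of its RNA per cell cannot be told apart.

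**Figure D1:**
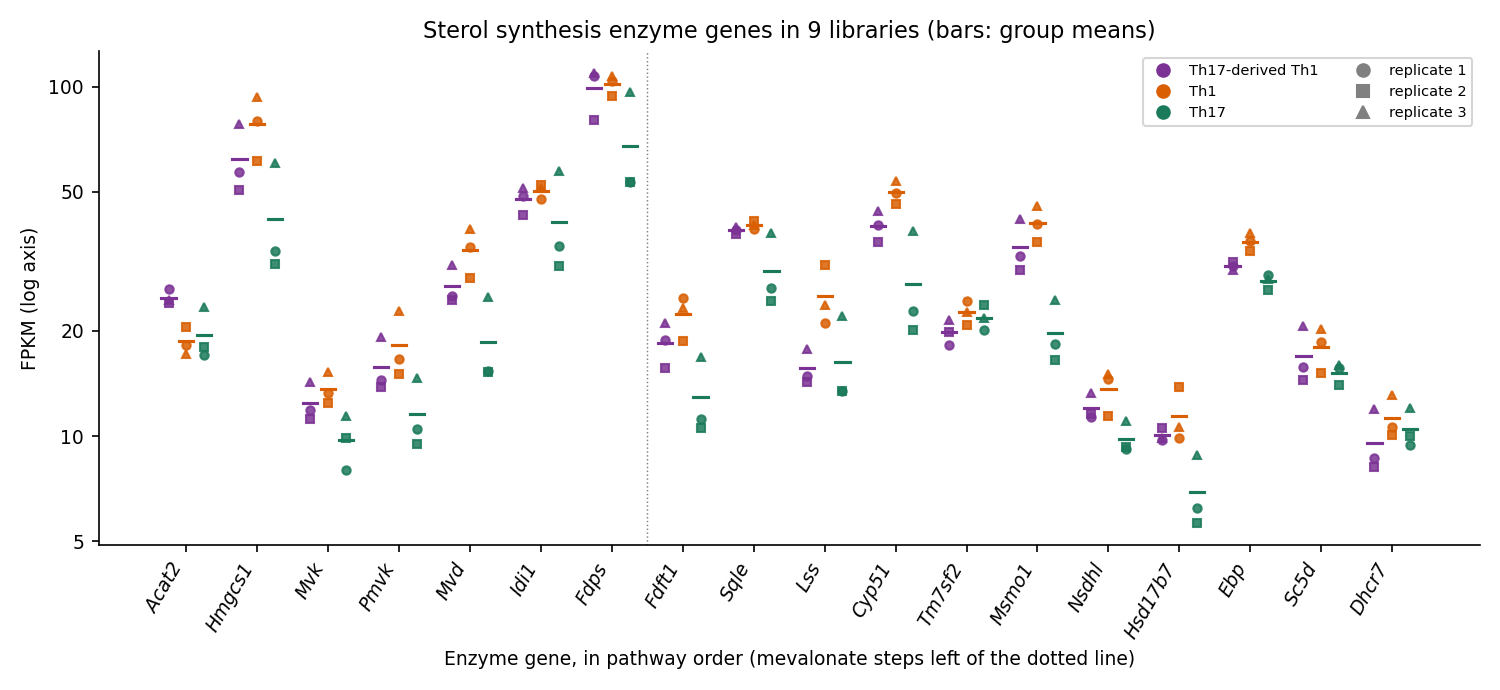
FPKM (log axis) of the 18 sterol synthesis enzyme genes in pathway order, with each library as a point (purple Th17-derived Th1, orange Th1, green Th17; shape gives the replicate) and the group mean as a bar. The green circles and squares (Th17 replicates 1 and 2) lie below all orange points in 15 of 18 genes, and the green triangle (replicate 3) is the highest Th17 point in 16 of 18. No share over all tested genes was taken for either count.

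Those Th1 against Th17 counts depended on single libraries. Without Th17 replicate 3, 14 enzymes and 20 of the 34 genes were higher in Th1. Without Th17 replicate 1 or without Th17 replicate 2, 6 enzymes and 7 of the 34 genes were higher, as many as without Th1 replicate 3, and 7 enzymes and 8 genes were higher without Th1 replicate 1. In each of these fits 0 enzymes were lower. Calls over all tested genes changed as well. They were 13.7% higher and 24.7% lower without Th17 replicate 3, and 10.1% and 19% without Th17 replicate 1. Without Th17 replicate 2 they were 10.3% and 18.6%. Without Th1 replicate 3 they were 10.4% and 19.6%, and without Th1 replicate 1 11.2% and 23.6%. Of the 13 enzyme calls, those of Mvd, Fdft1, Cyp51, Msmo1, Hsd17b7 and Ebp held in all 9 fits without 1 library and those of Hmgcs1, Mvk, Pmvk and Nsdhl in 5. With the mean log2 level of Cd8a and Cd8b1 as a covariate, 18 genes were higher, 13 of them enzymes. In that fit 14.4% of all tested genes were called higher and 30% lower. The enzymes' median difference kept its sign under other scalings, at 0.48 with equal sums, 0.70 with median-ratio scaling and 0.62 with quantile normalization. Median-ratio scaling moved the median of all genes from -0.17 to -0.01, and the share of all called genes that were higher in Th1 from 32.7% to 53.9% (26.7% with equal sums, 45.6% with quantile normalization).

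Among the 7 mevalonate pathway genes, 5 were higher in Th1 than in Th17. Hmgcs1 (chromosome 13, 119690379 to 119708260, GRCm38), the synthase that makes HMG-CoA, had 57.0, 50.7 and 78.1 FPKM in Th17-derived Th1 libraries, 79.7, 61.2 and 93.3 FPKM in Th1 libraries and 33.9, 31.1 and 60.6 FPKM in Th17 libraries. All Th1 values lay above all Th17 values, by a narrow margin between Th1 replicate 2 and Th17 replicate 3, and the log2(FPKM + 1) difference was 0.93 ± 0.27 (SE; limma adjusted p = 0.0211). Mvd (chromosome 8, 122433601 to 122443422), which decarboxylates mevalonate diphosphate, had 25.2, 24.6 and 30.9 FPKM in Th17-derived Th1, 34.8, 28.3 and 39.1 FPKM in Th1, and 15.3, 15.2 and 25.1 FPKM in Th17. It was 0.87 ± 0.20 higher in Th1 than in Th17 (SE; limma adjusted p = 0.00803), and it passed in all 20 other fits. Mvk and Pmvk are the kinases that phosphorylate mevalonate in turn. Mvk had 11.8, 11.2 and 14.3 FPKM in Th17-derived Th1, 13.3, 12.4 and 15.3 FPKM in Th1, and 7.997, 9.86 and 11.4 FPKM in Th17. Pmvk had 14.4, 13.9 and 19.2 FPKM in Th17-derived Th1, 16.7, 15.1 and 22.9 FPKM in Th1, and 10.5, 9.52 and 14.7 FPKM in Th17. Both were higher in Th1 than in Th17, by 0.45 and 0.61 (limma adjusted p = 0.0311 and 0.0349), without overlap.

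Fdps, which joins isoprenoid units into farnesyl diphosphate, had 107, 80.3 and 109 FPKM in Th17-derived Th1, 104, 94.3 and 107 FPKM in Th1, and 53.2, 53.2 and 96.3 FPKM in Th17. Its groups overlapped through Th17 replicate 3, and it was 0.64 ± 0.22 higher in Th1 (SE; limma adjusted p = 0.0434), a call that held in 4 of the 9 fits that each left out 1 library. Exons of Fdps overlap those of the predicted gene Gm43738 on the same strand, so reads could be shared between them. Idi1, the isopentenyl diphosphate isomerase, differed by 0.34 between Th1 and Th17 (limma adjusted p = 0.185), with Th17 replicate 3 (57.3 FPKM) above every other library. Acat2, which condenses acetyl-CoA at the entry to the pathway, followed another order: it averaged 24.9 ± 1.22 FPKM in Th17-derived Th1, 18.7 ± 1.74 FPKM in Th1 and 19.5 ± 3.44 FPKM in Th17 (SD, n = 3 each). Every Th17-derived Th1 library lay above every library of both other groups for Acat2, yet neither difference passed (0.40 against Th1 and 0.35 against Th17, limma adjusted p = 0.0764 and 0.0900).

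Of the 11 genes from squalene to cholesterol, 8 were higher in Th1 than in Th17. Msmo1 (chromosome 8, 64718139 to 64733792, the second sequence printed above), the sterol methyl oxidase that removes the methyl groups at carbon 4, had 32.8, 30.0 and 41.8 FPKM in Th17-derived Th1, 40.3, 36.0 and 45.5 FPKM in Th1, and 18.3, 16.5 and 24.5 FPKM in Th17. No Th17 library reached any library of the other groups. It was 2.02-fold higher in Th1 than in Th17 (log2 difference 1.02 ± 0.17 SE, limma adjusted p = 0.00197) and passed in all 20 other fits. Cyp51 (chromosome 5, 4081145 to 4104746), the lanosterol demethylase, had 40.1, 36.0 and 44.0 FPKM in Th17-derived Th1, 49.6, 46.3 and 53.7 FPKM in Th1, and 22.8, 20.1 and 38.7 FPKM in Th17. Its Th1 and Th17 libraries were separate, with a difference of 0.91 ± 0.21 (SE; limma adjusted p = 0.00828), although exons of Cyp51 overlap those of Akap9 on the other strand and the use of strand in counting is not given.

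Fdft1 makes squalene from farnesyl diphosphate and is thereby the first enzyme committed to sterols. Its values were 18.8, 15.7 and 21.0 FPKM in Th17-derived Th1, 24.9, 18.7 and 23.3 FPKM in Th1, and 11.2, 10.6 and 16.9 FPKM in Th17, and it was 0.76 ± 0.19 higher in Th1 (SE; limma adjusted p = 0.0106). Its exons overlap those of Ctsb on the other strand. Hsd17b7, a sterol ketoreductase, was higher by 0.66 ± 0.17 (SE; limma adjusted p = 0.0119), at 9.71, 10.6 and 9.88 FPKM in Th17-derived Th1, 9.85, 13.9 and 10.6 FPKM in Th1, and 6.23, 5.64 and 8.82 FPKM in Th17. For both genes every Th1 library exceeded every Th17 library, and both calls held in all 20 other fits.

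Ebp, the isomerase that shifts the sterol double bond, had the smallest SE of the 18 enzymes. It had 30.7, 31.6 and 29.8 FPKM in Th17-derived Th1, 36.1, 33.97 and 38.0 FPKM in Th1, and 29.0, 26.2 and 28.2 FPKM in Th17, so the Th1 libraries stood above all others. The difference between Th1 and Th17 was small at 0.36 ± 0.08 (SE; limma adjusted p = 0.00736). Sqle, the squalene epoxidase and a rate-limiting step of the branch, had 38.9, 37.8 and 39.7 FPKM in Th17-derived Th1, 39.3, 41.2 and 40.2 FPKM in Th1, and 26.6, 24.4 and 38.2 FPKM in Th17. Only Th17 replicates 1 and 2 lay apart from the rest, and Th1 against Th17 gave 0.45 (limma adjusted p = 0.0334), a call that held in 2 of the 9 fits without 1 library. Nsdhl, the partner of Msmo1 in carbon 4 demethylation, had 11.3, 11.5 and 13.3 FPKM in Th17-derived Th1, 14.5, 11.4 and 15.1 FPKM in Th1, and 9.15, 9.30 and 11.0 FPKM in Th17, with a difference of 0.43 between Th1 and Th17 and no overlap (limma adjusted p = 0.0228). Lss, which closes squalene epoxide into lanosterol, had 14.8, 14.2 and 17.8 FPKM in Th17-derived Th1, 21.0, 30.8 and 23.7 FPKM in Th1, and 13.5, 13.4 and 22.1 FPKM in Th17. It was 0.62 higher in Th1 than in Th17 (limma adjusted p = 0.0372), with Th17 replicate 3 above Th1 replicate 1 and with an overlap between its exons and an antisense gene. The Lss call held in 3 of those 9 fits.

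Dhcr7, Sc5d and Tm7sf2 passed the test in no comparison. Dhcr7, which makes cholesterol from 7-dehydrocholesterol, averaged 9.58 ± 2.05 FPKM in Th17-derived Th1, 11.3 ± 1.59 FPKM in Th1 and 10.5 ± 1.37 FPKM in Th17 (SD, n = 3 each). Sc5d, the desaturase before it, varied 1.47-fold between its lowest and its highest library. Tm7sf2, a sterol reductase whose exons overlap those of Vps51, averaged 19.9 ± 1.58 FPKM in Th17-derived Th1, 22.6 ± 1.79 FPKM in Th1 and 21.8 ± 1.79 FPKM in Th17 (SD, n = 3 each). The limma 95% interval for Th1 minus Th17 was -0.27 to 0.45 for Dhcr7, -0.11 to 0.56 for Sc5d and -0.18 to 0.28 for Tm7sf2.

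**Figure D2:**
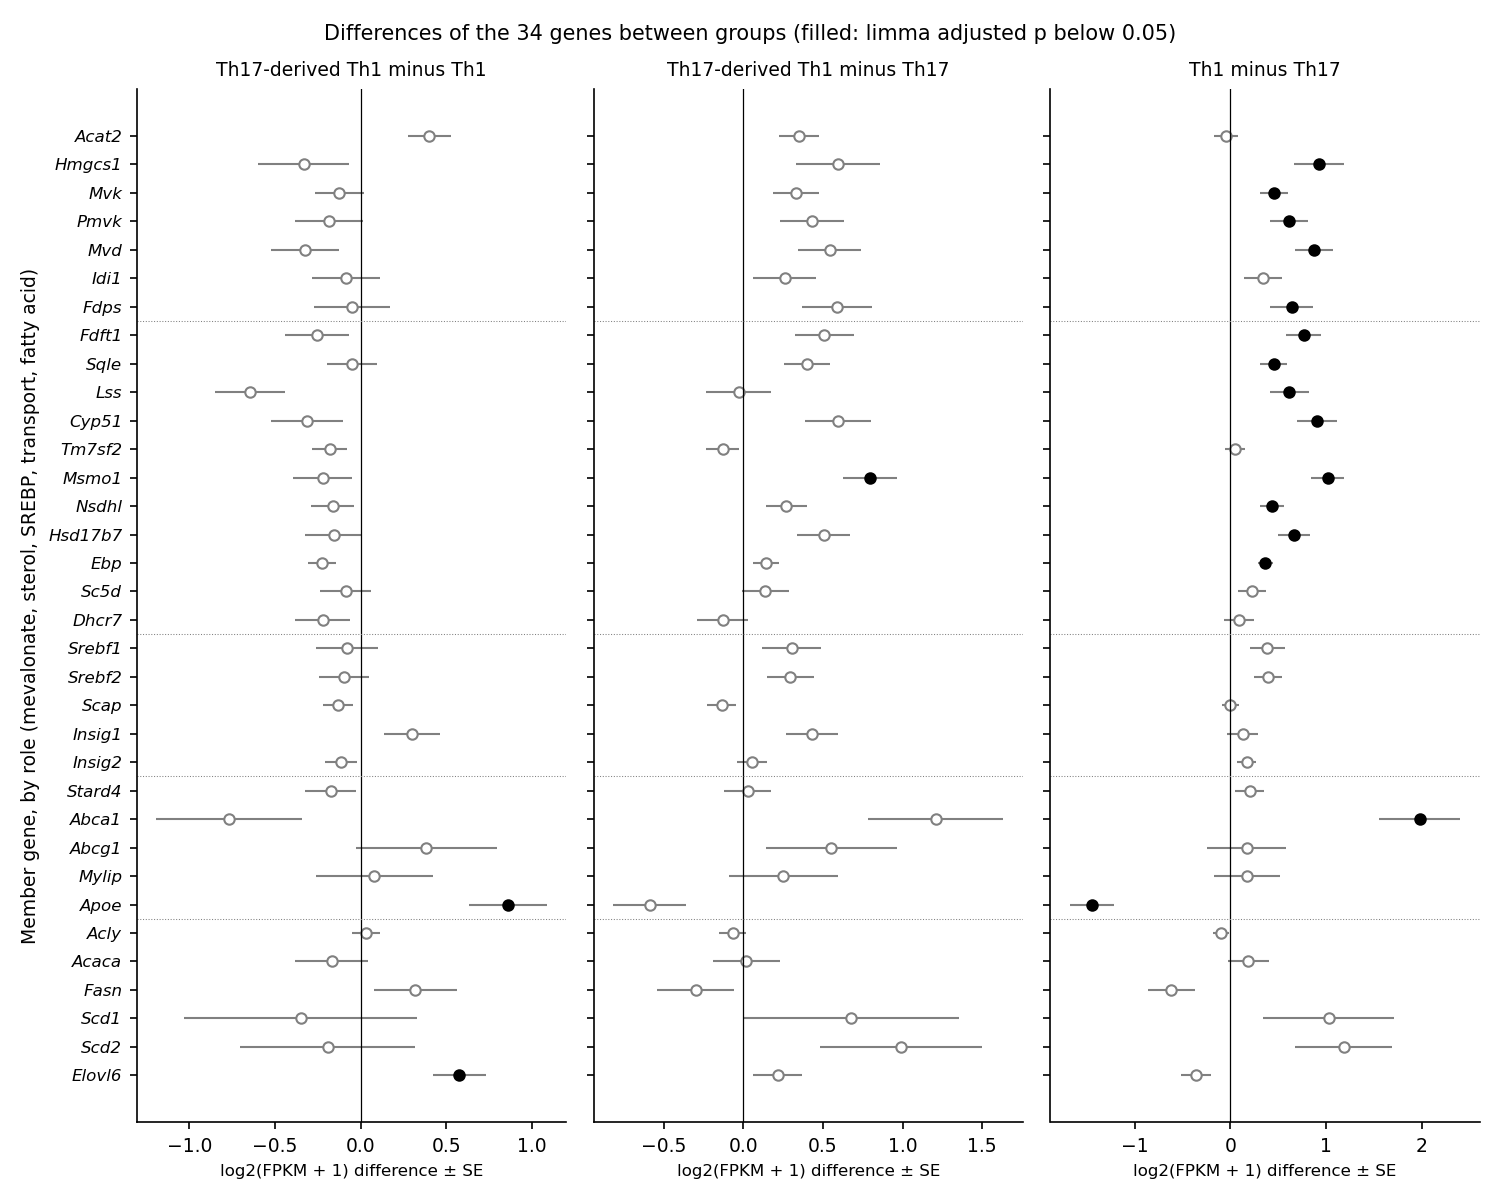
Difference in log2(FPKM + 1) of each of the 34 genes (points, with the SE as a line) in the 3 comparisons, grouped by role. Filled points passed limma's adjusted p of 0.05: 2 genes in Th17-derived Th1 minus Th1, 1 in Th17-derived Th1 minus Th17 and 15 in Th1 minus Th17.

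Against Th17 cells, Th17-derived Th1 cells had higher Msmo1 by 1.73-fold (log2 difference 0.79 ± 0.17 SE, limma adjusted p = 0.0145), with every Th17-derived Th1 library above every Th17 library. That was the only gene of the 34 called higher, and 0 were called lower, where 6.43% of all tested genes were called higher and 9.49% lower. The difference was above 0 for 27 of the 34 genes and for 15 of the 18 enzymes, with medians of 0.30 and 0.38 against -0.12 over all tested genes, and 12 of the 34 had an unadjusted limma p below 0.05. The shares of all tested genes are at adjusted p. No share was taken at the unadjusted threshold, for this count or for the others at that threshold below. Among the enzymes, nearest to the threshold beside Acat2 were Hsd17b7 (0.51, adjusted p = 0.0689), Cyp51 (0.59, adjusted p = 0.0848), Sqle (0.40, adjusted p = 0.0928), Fdft1 (0.51, adjusted p = 0.0933) and Mvd (0.54, adjusted p = 0.0940) in limma. Th17 replicates 1 and 2 lay below all Th17-derived Th1 libraries in 15 of 18 enzymes. That count leaves out Th17 replicate 3, and no share over all tested genes was taken for it.

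Here too the count turned on Th17 replicate 3. Without it 12 of the 34 genes were higher in Th17-derived Th1 than in Th17, 10 of them enzymes, and with replicates 1 and 2 alone 7 enzymes were higher. Of all tested genes, 6.75% were higher and 8.75% lower without it, and 5.14% and 5.82% with replicates 1 and 2 alone. Without Th17 replicate 1, and likewise without Th17 replicate 2, 0 of the 34 genes passed in limma, so Msmo1 was lost as well, while 3 and 2 of the 34 had an unadjusted limma p below 0.05. Calls over all tested genes fell there too, to 3.66% higher and 3.13% lower without replicate 1 and 3.63% and 2.9% without replicate 2. Without Th1 replicate 2, which shares in the estimate of the spread, 3 of the 34 passed, where 8.49% of all tested genes were higher and 13.9% lower. The Cd8a and Cd8b1 covariate gave 8 higher genes, 6 of them enzymes, where 7.36% of all tested genes were higher and 10.6% lower. Other scalings changed the share of all called genes that were higher from 40.4% to 37.7% with equal sums, 63.1% with median-ratio scaling and 54.5% with quantile normalization, and the enzymes' median to 0.36, 0.49 and 0.45.

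Against Th1 cells, Th17-derived Th1 cells had 0 sterol synthesis enzymes called in either direction by limma. Of the 34 genes, Apoe and Elovl6 were higher and 0 lower, where 5.67% of all tested genes were called higher and 4.81% lower at adjusted p. At an unadjusted p below 0.05, for which no such share was taken, 5 of the 34 passed in limma, 3 of them enzymes. The point estimates were below 0 in 17 of the 18 enzymes, with a median of -0.18 against 0.05 over all tested genes. Acat2 and Lss came nearest to the threshold, at 0.40 and -0.64 (limma adjusted p = 0.0764 and 0.0780), with each Th17-derived Th1 library above each Th1 library in Acat2 and below it in Lss. Cyp51 and Ebp also had no overlap, at -0.31 and -0.22 (limma adjusted p = 0.383 and 0.116). The limma 95% interval for Hmgcs1 was -0.93 to 0.27 and that for Sqle -0.38 to 0.28, and a difference anywhere within those bounds remains possible. Without Th17 replicate 3, which enters through the shared spread, Acat2 was called higher and Lss lower, and without Th1 replicate 2 Acat2 and Fasn were higher and Abca1 lower. Among all called genes 54.1% were higher in Th17-derived Th1, a share that was 61.3% with equal sums, 45.5% with median-ratio scaling and 45.3% with quantile normalization.

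By group means, the Th17-derived Th1 cells stood between the other groups for 24 of the 34 genes and for 14 of the 18 enzymes. In those 14 enzymes Th1 was highest and Th17 lowest. The exceptions among the enzymes were Acat2, in which Th17-derived Th1 was highest, and Lss, Tm7sf2 and Dhcr7, in which it was lowest. The mean sum of the enzymes in Th17-derived Th1 was 0.884 times that in Th1 and 1.31 times that in Th17. Since each pair of comparisons shares a group, these orders are descriptions. No share over all tested genes was taken for them, so they are not shown to be particular to these genes. Apart from Msmo1 against Th17, no enzyme passed the test between Th17-derived Th1 and either of its neighbours in the order.

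None of the SREBP control genes passed the test. Srebf2, the SREBP that mainly drives cholesterol synthesis, had 85.9, 84.4 and 104 FPKM in Th17-derived Th1, 111, 80.5 and 103 FPKM in Th1, and 65.8, 71.9 and 85.4 FPKM in Th17. Th17 replicate 3 exceeded Th1 replicate 2, and the difference between Th1 and Th17 was 0.39 ± 0.15 (SE; limma adjusted p = 0.0575). Srebf1, whose products favour fatty acid genes, averaged 52.7 ± 8.82 FPKM in Th17-derived Th1, 55.9 ± 9.81 FPKM in Th1 and 42.7 ± 8.83 FPKM in Th17 (SD, n = 3 each; limma adjusted p = 0.120 for Th1 against Th17). Its exons overlap those of Rai1 on the other strand. Scap, the escort protein, stayed within 28.4 to 36.1 FPKM in the 9 libraries.

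Insig1 is itself an SREBP target and retains SCAP in the endoplasmic reticulum. It was highest in Th17-derived Th1 cells by mean, with 28.2, 23.3 and 30.9 FPKM, against 23.1, 18.7 and 24.4 FPKM in Th1 and 17.1, 18.9 and 24.8 FPKM in Th17. Its groups overlapped, and neither difference of Th17-derived Th1 passed (0.30 against Th1 and 0.43 against Th17, limma adjusted p = 0.282 and 0.104). Insig2, its relative, ranged from 6.90 to 8.75 FPKM over all libraries. In limma 0 of the 5 control genes were called in any comparison (1 had an unadjusted p below 0.05 in each comparison with Th17 and 0 in Th17-derived Th1 against Th1), and in Th1 against Th17 their median difference was 0.17.

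Sterol efflux and transport genes gave the largest single differences, in opposite directions. Abca1 (chromosome 4, 53030787 to 53159895, the third sequence printed above), the membrane transporter that loads cholesterol onto lipid-poor apolipoproteins, had 1.76, 1.501 and 4.54 FPKM in Th17-derived Th1, 7.00, 1.82 and 7.33 FPKM in Th1, and 0.443, 0.514 and 0.415 FPKM in Th17. The Th17 libraries were tightly grouped below 1 FPKM, while Th1 replicate 2 stood well below the other Th1 libraries and within the Th17-derived Th1 range. The difference was 3.93-fold between Th1 and Th17 (log2 1.98 ± 0.43 SE, limma adjusted p = 0.00618), and Th17-derived Th1 against Th17 gave 1.21 ± 0.43 without overlap (SE; limma adjusted p = 0.0851). Abca1 passed the filter on low values through its Th1 and Th17-derived Th1 libraries, so with such Th17 values it could enter the test only by being higher elsewhere.

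Apoe (chromosome 7, 19696109 to 19699188), which encodes apolipoprotein E, ran the other way. Its values were 2.96, 2.78 and 1.77 FPKM in Th17-derived Th1, 1.29, 1.27 and 0.339 FPKM in Th1, and 4.87, 3.96 and 3.85 FPKM in Th17. The groups did not overlap, and the order was Th17, Th17-derived Th1, Th1 from high to low. It was lower in Th1 than in Th17 (log2 difference -1.45 ± 0.23 SE, limma adjusted p = 0.00146) and 1.81-fold higher in Th17-derived Th1 than in Th1 (log2 0.86 ± 0.23 SE, limma adjusted p = 0.0445). The second call was at the edge: it held in 2 of the 9 fits that each left out 1 library, and was lost without Th17-derived Th1 replicate 1 or 2, without Th1 replicate 1 or 3, and without any one Th17 library. Th17-derived Th1 against Th17 gave -0.59 (limma adjusted p = 0.109). With Th1 replicate 3 below 1 FPKM, Apoe met the filter on low values (1 FPKM in 3 or more libraries) only with libraries of the other groups. In those groups it was higher.

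Macrophages express Apoe and Abca1 strongly, so their markers were read beside these genes. C1qa, C1qb and C1qc were at 0 in all 9 libraries, Csf1r did not exceed 0.0109 FPKM, Adgre1 0.0583 FPKM and Lyz2 0.428 FPKM. The 14 macrophage and dendritic markers, of which 7 were high enough to test, summed to 39.3 to 50.3 FPKM in Th17-derived Th1, 23.7 to 43.2 FPKM in Th1 and 34.8 to 38.3 FPKM in Th17, most of it from Cd74, Fcer1g and Cd68, which T cells can also express. Cd68 was higher in Th1 than in Th17 (7.73 ± 4.06 against 2.04 ± 0.769 FPKM, SD, n = 3 each; limma adjusted p = 0.0141). Of the other 6 tested markers, 0 were higher and 3 lower in Th1: Fcer1g had 9.89 ± 1.76 FPKM in Th1 against 20.8 ± 3.61 FPKM in Th17, H2-Aa 0.161 ± 0.0723 against 1.93 ± 0.359 FPKM, and H2-Ab1 0.866 ± 0.618 against 2.68 ± 0.0696 FPKM (SD, n = 3 each; limma adjusted p = 0.00532, 0.00041 and 0.0202). Cd68 thus had the direction of Abca1, and these 3 that of Apoe. In Th17-derived Th1 against Th1, the comparison of the other Apoe call, H2-Aa was higher and Itgax lower (limma adjusted p = 0.0221 and 0.0477). H2-Aa did not exceed 0.239 FPKM in Th1, nor Itgax 0.579 FPKM in Th17-derived Th1. Each passed the filter on low values through libraries of other groups. With such values in the low group, each could enter the test only by being higher elsewhere. The part of these markers in the Apoe and Abca1 differences was not tested.

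Abcg1 and Mylip, also LXR targets, passed in no comparison. Abcg1, a transporter that passes cholesterol to lipoproteins, had 16.0, 14.0 and 27.8 FPKM in Th17-derived Th1, 21.5, 6.07 and 19.8 FPKM in Th1, and 11.0, 12.7 and 13.1 FPKM in Th17. Mylip, the ubiquitin ligase that marks lipoprotein receptors for degradation, had 6.47, 6.39 and 12.1 FPKM in Th17-derived Th1, 10.0, 3.81 and 10.6 FPKM in Th1, and 5.85, 6.30 and 7.61 FPKM in Th17. In both genes Th1 replicate 2 was the lowest of the 9 libraries and Th17-derived Th1 replicate 3 the highest. Th1 against Th17 gave 0.17 in each (limma adjusted p = 0.763 for Abcg1 and 0.710 for Mylip), with 95% intervals of -0.77 to 1.10 and -0.60 to 0.94. Stard4, which carries cholesterol between membranes, averaged 22.5 ± 2.24 FPKM in Th17-derived Th1, 25.4 ± 1.57 FPKM in Th1 and 22.3 ± 5.11 FPKM in Th17 (SD, n = 3 each) and passed in no comparison.

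**Figure D3:**
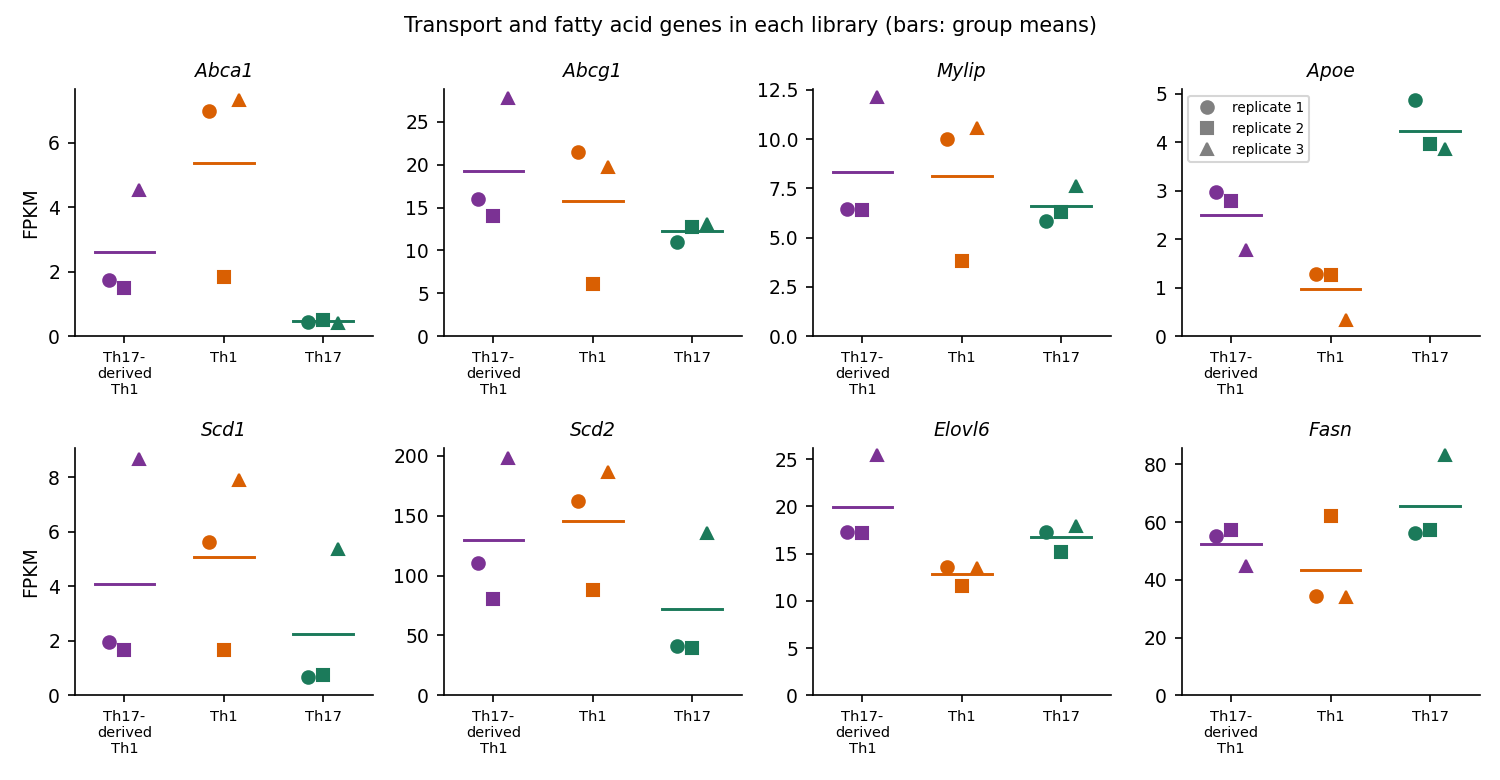
FPKM (linear axes from 0) of 4 transport genes and 4 fatty acid genes in each library, with the group mean as a bar and the replicate as the shape of the point. Abca1 is lowest and Apoe highest in Th17, and Th1 replicate 2 (square) lies far from the other Th1 points in Abca1, Abcg1, Mylip, Scd1, Scd2 and Fasn.

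Of the 6 fatty acid genes, 1 passed in any comparison. That was Elovl6 (chromosome 3, 129532355 to 129638495), which elongates palmitate to stearate. It had 17.3, 17.2 and 25.5 FPKM in Th17-derived Th1, 13.6, 11.5 and 13.5 FPKM in Th1, and 17.3, 15.2 and 17.9 FPKM in Th17. The Th1 libraries lay below all others, and Th17-derived Th1 was 1.49-fold above Th1 (log2 0.58 ± 0.15 SE, limma adjusted p = 0.0448). This call was lost in each of the 9 fits that left out 1 library, of any group, and with median-ratio or quantile scaling. Th1 against Th17 gave -0.36 (limma adjusted p = 0.0859), also without overlap, and exons of Elovl6 overlap an antisense gene.

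Scd2 and Scd1, paralogous desaturases that make monounsaturated fatty acids and between which reads may be divided, varied widely between replicates. Scd2 had 110.5, 80.6 and 198 FPKM in Th17-derived Th1, 162, 87.7 and 186 FPKM in Th1, and 40.9, 39.6 and 135 FPKM in Th17. Scd1 had 1.95, 1.67 and 8.67 FPKM in Th17-derived Th1, 5.64, 1.65 and 7.90 FPKM in Th1, and 0.664, 0.750 and 5.39 FPKM in Th17. Replicate 3 was highest in every group for both genes, and Th17 replicate 3 lay within the Th1 range. The differences between Th1 and Th17 did not pass, at 1.18 ± 0.51 for Scd2 and 1.03 ± 0.68 for Scd1 (SE; limma adjusted p = 0.0892 and 0.247).

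Fasn, the fatty acid synthase, had 55.3, 57.2 and 44.9 FPKM in Th17-derived Th1, 34.3, 62.1 and 33.9 FPKM in Th1, and 56.2, 57.3 and 83.1 FPKM in Th17. Th1 replicates 1 and 3 were the lowest of the 9 libraries and Th1 replicate 2 the second highest, and Th1 against Th17 gave -0.62 (limma adjusted p = 0.0664). Acly, which supplies cytosolic acetyl-CoA, kept within 69.1 to 85.9 FPKM. Acaca, which makes malonyl-CoA, averaged 9.01 ± 0.637 FPKM in Th17-derived Th1, 10.3 ± 0.991 FPKM in Th1 and 9.29 ± 3.79 FPKM in Th17 (SD, n = 3 each), with Th17 replicate 3 (13.6 FPKM) above all other libraries.

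A pattern across replicates ran through these genes. Replicate 3 lay above the mean of replicates 1 and 2 in 27 of the 34 genes in Th17-derived Th1, 27 in Th1 and 30 in Th17, with median log2 differences of 0.27 in Th17-derived Th1, 0.12 in Th1 and 0.46 in Th17. Over all tested genes the medians were -0.03 in Th17-derived Th1, -0.05 in Th1 and 0.01 in Th17. In 22 of the 34 (64.7%) it did so in all 3 groups, against 1408 of the 10538 tested genes (13.4%). For the sterol enzymes alone they were 0.26 in Th17-derived Th1, 0.14 in Th1 and 0.51 in Th17. Summed enzymes in Th17 replicate 3 were 1.51 times the mean of the other 2 Th17 libraries. Proliferation genes, 15 in number, had medians of -0.33 in Th17-derived Th1, -0.27 in Th1 and 0.20 in Th17, and the sum of Cd8a and Cd8b1 was highest in replicate 3 of every group. In Th1 the measure also depended on replicate 2. It lay below replicates 1 and 3, which were close, in genes such as Abca1 (7.00, 1.82 and 7.33 FPKM) and Srebf1 (61.5, 44.5 and 61.6 FPKM). In others, such as Lss (21.0, 30.8 and 23.7 FPKM), replicate 2 was the highest. A value above 0 thus need not set replicate 3 apart from both other libraries. What sets replicate 3 apart is not given in the labels, and the part of the CD8 genes in the replicate pattern was not tested.

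**Figure D4:**
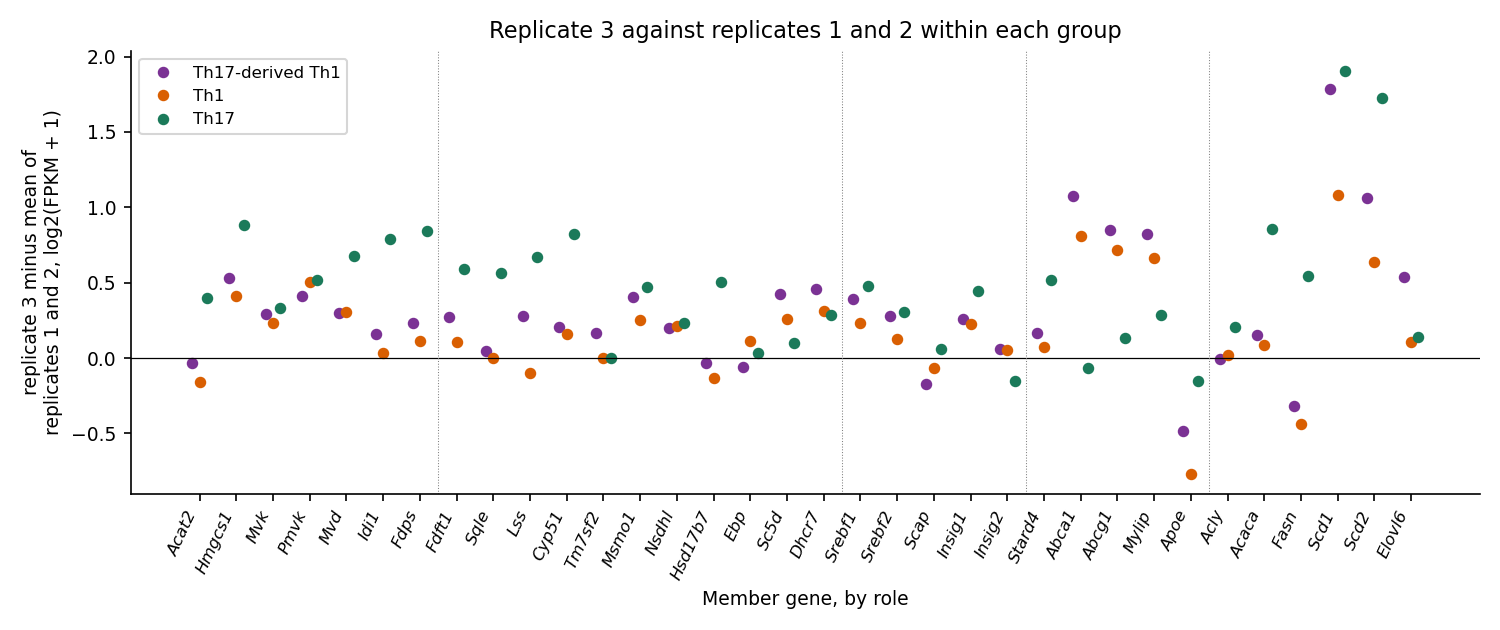
Replicate 3 minus the mean of replicates 1 and 2, in log2(FPKM + 1), for each of the 34 genes by role (purple Th17-derived Th1, orange Th1, green Th17). Most points lie above 0, the highest being Scd1 in Th17 at 1.90, and Apoe is below 0 in all 3 groups.

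Further genes of these pathways are given as counts beside the shares of all tested genes, which were 5.67% higher and 4.81% lower in Th17-derived Th1 against Th1, 6.43% higher and 9.49% lower in Th17-derived Th1 against Th17, and 14% higher and 28.9% lower in Th1 against Th17. Of 12 genes for SREBP processing and turnover, 2 were higher and 0 lower in Th17-derived Th1 than in Th1, 1 higher and 1 lower than in Th17, and in Th1 against Th17 the list had 2 higher (16.7%) and 4 lower (33.3%), near the shares of all genes. Rnf145, a ubiquitin ligase of the endoplasmic reticulum known to regulate SCAP, was lower in Th1 (33.0 ± 3.76 FPKM) than in Th17 (58.3 ± 6.12 FPKM; SD, n = 3 each; limma adjusted p = 0.000703). Lmna, whose lamin products bind SREBP1, followed at 5.16 ± 2.27 against 11.0 ± 2.49 FPKM in Th1 and Th17 (SD, n = 3 each; limma adjusted p = 0.0135) and averaged 15.2 ± 0.437 FPKM in Th17-derived Th1 (adjusted p = 0.0104 against Th1). Mbtps1, the protease that makes the first cut in SREBP, was lower in Th17-derived Th1 than in Th17 (log2 difference -0.35, limma adjusted p = 0.0165). Fbxw7, part of a ligase that degrades SREBP, was higher by 0.43 in the same comparison (limma adjusted p = 0.0375) and by 0.50 in Th1 against Th17 (limma adjusted p = 0.00856).

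For LXR and its partners, 6 of 9 genes were high enough to test. The LXR-beta gene Nr1h2 averaged 45.5 ± 3.78 FPKM in Th17-derived Th1, 46.9 ± 1.38 FPKM in Th1 and 45.8 ± 2.56 FPKM in Th17 (SD, n = 3 each), and the LXR-alpha gene Nr1h3 was too low to test. In limma 0 of the 6 were called in Th17-derived Th1 against Th1 (0 also at an unadjusted p below 0.05), 1 was higher and 0 lower than in Th17, and 0 were higher and 2 lower (33.3%, near the 28.9% of all genes) in the Th1 to Th17 comparison. Rxra and Rxrb, which pair with LXR, were lower in Th1 than in Th17 (log2 differences -1.07 and -0.50, limma adjusted p = 0.0162 and 0.0257). Lpcat3, a phospholipid acyltransferase and LXR target, was 0.50 higher in Th17-derived Th1 than in Th17 (limma adjusted p = 0.0220).

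Of 23 listed genes of sterol uptake, trafficking and storage, 20 were tested. Soat2, which esterifies cholesterol for storage, averaged 4.09 ± 1.65 FPKM in Th17-derived Th1, 11.5 ± 1.15 FPKM in Th1 and 4.65 ± 1.78 FPKM in Th17 (SD, n = 3 each). It was lower in Th17-derived Th1 than in Th1 (-1.35, limma adjusted p = 0.0160) and higher in Th1 than in Th17 (1.19, limma adjusted p = 0.00774). The list had 2 higher and 3 lower in Th17-derived Th1 against Th1, 1 higher and 3 lower in Th17-derived Th1 against Th17, and 3 higher (15%) and 4 lower (20.0%) in Th1 against Th17, where 14% and 28.9% of all genes were called.

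In the remaining fatty acid and glycerolipid genes, 22 of 23 listed were tested. Against Th1, 2 were higher and 1 lower in Th17-derived Th1, against Th17, 4 were higher and 2 lower, and Th1 against Th17 gave 6 higher and 6 lower (27.3% each, where 14% of all genes were higher and 28.9% lower). Acsl3 averaged 5.44 ± 0.278 FPKM in Th17-derived Th1, 2.06 ± 0.323 FPKM in Th1 and 3.97 ± 0.362 FPKM in Th17 (SD, n = 3 each). It was higher in Th17-derived Th1 than in Th1 (log2 difference 1.08, limma adjusted p = 0.00123). It was lower in Th1 than in Th17 (limma adjusted p = 0.00173). Me1, the malic enzyme that supplies NADPH for lipid synthesis, averaged 1.27 ± 0.206 FPKM in Th17-derived Th1, 8.84 ± 4.15 FPKM in Th1 and 0.187 ± 0.0643 FPKM in Th17 (SD, n = 3 each). It differed by -2.04 between Th17-derived Th1 and Th1 and by 2.98 between Th1 and Th17 (limma adjusted p = 0.00195 and 6.57e-05). Like Abca1, it reached the filter on low values through Th17-derived Th1 and Th1 libraries only, so with such Th17 values it could enter the test only by being higher elsewhere. Dgat1, which completes triglyceride synthesis, was 76.9 ± 36.5 FPKM in Th17-derived Th1, 84.3 ± 27.7 FPKM in Th1 and 13.8 ± 0.443 FPKM in Th17 (SD, n = 3 each), higher than in Th17 in both (2.30 and 2.47, limma adjusted p = 0.00213 and 0.000606). Acss2, which makes acetyl-CoA from acetate and is known as an SREBP target, averaged 4.89 ± 2.41 FPKM in Th17-derived Th1, 3.99 ± 1.53 FPKM in Th1 and 13.2 ± 3.94 FPKM in Th17 (SD, n = 3 each) and was lower than in Th17 both in Th17-derived Th1 (log2 difference -1.30, limma adjusted p = 0.0315, called in 5 of the 9 fits without 1 library) and in Th1 (log2 difference -1.52, limma adjusted p = 0.00696).

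Of 15 genes in other branches that use isoprenoid units, Fntb and Rabggta, subunits of protein prenyltransferases, were lower in Th1 than in Th17 (log2 differences -0.82 and -0.56, limma adjusted p = 0.00233 and 0.00279), and 0 were higher. Fntb was also higher in Th17-derived Th1 than in Th1 (0.73, limma adjusted p = 0.0143), the only call of the list there, and 0 were called in limma in Th17-derived Th1 against Th17 (3 at an unadjusted p below 0.05). The 15 proliferation genes had 1 higher and 1 lower in Th17-derived Th1 against Th1 (6.67% each, near the 5.67% and 4.81% of all genes). In Th17-derived Th1 against Th17 they had 0 higher and 1 lower (6.67%), where 6.43% and 9.49% of all genes were called. Th1 against Th17 gave 1 higher (6.67%) and 3 lower (20.0%), where 14% and 28.9% of all genes were called. Pcna was higher and Top2a lower in Th1 than in Th17 (log2 differences 0.73 and -0.56, limma adjusted p = 0.000502 and 0.0114). Among the calls named in these further lists, those of Acsl3, Dgat1 and Me1 passed in all 9 fits without 1 library. A further Me1 call, in Th17-derived Th1 against Th17, passed in 3 of the 9. Between Th1 and Th17, those of Rnf145, Lmna, Fbxw7, Soat2, Acss2, Fntb, Rabggta, Pcna and Top2a also passed in all 9. Between Th17-derived Th1 and Th1, Lmna passed in 8 of the 9, Fntb in 6 and Soat2 in 5. Between Th17-derived Th1 and Th17, Mbtps1 and Lpcat3 passed in 5 of the 9 and Fbxw7 in 2, and between Th1 and Th17, Rxra passed in 7 and Rxrb in 5.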

How the data were processed

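Messenger RNA was sequenced by the study in 9 libraries, 3 per group, with groups and replicate numbers read from the titles of the samples. FPKM values were deposited by the authors, and per the submitters' processing notes HISAT2, DESeq2 and the mm10 build were used, with versions, roles and annotation not given in the sources used here. Low values (below 0.5 FPKM) shared no steps between libraries (commonest ratio 0.619% to 1.13% of genes, bins of 0.01 log2), so depth could not be recovered.

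Genes that reached 1 FPKM in 3 or more libraries (10538, all 34 genes among them) were tested as log2(FPKM + 1), which understates differences of low genes, with limma 3.58.1 (R 4.3.3): mean-variance trend, all 9 libraries in 1 fit (6 residual degrees of freedom before moderation), two-sided p-values adjusted by Benjamini-Hochberg over all tested genes, threshold 0.05. The fit was checked on simulated data with independent errors in each library, so that check does not bear on the replicate pattern described above. Positions are from GENCODE on GRCm38. Tables and figures used Python 3.11.15, pandas 2.3.3 and matplotlib 3.10.9.

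The 34 genes and the further lists were chosen with earlier results of these data known, so counts on them are no independent support. All 34 are described, and of each further list up to 2 called genes per direction with the largest difference could be named in each comparison; Cd68, other markers, Nr1h2 and Nr1h3 are named outside that rule. Other fits used pseudocounts of 0.1 and 5, a replicate block, no filter or one of 5 FPKM, 3 scalings, 2 groups only, replicates 1 and 2 only, a Cd8a and Cd8b1 covariate, and the omission of each library.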

Additional observations from a re-analysis of the deposited data

How the results depend on the processing

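Of the counts over the 34 genes, the 14 called higher in Th1 than in Th17 stayed within 1.5 times in every fit that kept all libraries (10 to 18), and Mvd, Fdft1, Cyp51, Msmo1, Hsd17b7, Abca1 and Apoe kept their call in all fits that tested them. Omitting 1 library at a time gave 7 to 20 higher and 1 to 2 lower in Th1 against Th17, 0 to 12 higher and 0 to 1 lower in Th17-derived Th1 against Th17, and 0 to 3 higher and 0 to 1 lower in Th17-derived Th1 against Th1; where an arm then holds fewer libraries, its spread is taken from the pooled fit. The 1 gene lower in Th1 than in Th17 became 2 with the replicate block, 0 with a filter of 5 FPKM (Apoe was not tested there), 3 with equal sums and 2 with 2 groups only. Of the 2 genes higher in Th17-derived Th1 than in Th1, 1 was left with a pseudocount of 0.1, with a filter of 5 FPKM, with median-ratio scaling and with replicates 1 and 2 only, and 0 with no filter, with quantile normalization and with 2 groups only. The 1 gene higher in Th17-derived Th1 than in Th17 became 8 with the replicate block, 2 with a pseudocount of 0.1, 4 with median-ratio scaling, 3 with quantile normalization, 2 with 2 groups only, 7 with replicates 1 and 2 only and 8 with the CD8 covariate, and the 0 lower became 1 with the replicate block, a pseudocount of 5, 2 groups only and the CD8 covariate. Causes were not tested. No called gene changed sign; 51 uncalled values did, the largest being 0.38 in size. Replicate numbers did not pair the samples: the deviations of same-numbered libraries correlated at -0.18, 0.54 and 0.66 between Th17-derived Th1 and Th1, 0.15, 0.06 and -0.01 between Th17-derived Th1 and Th17, and 0.33, -0.18 and -0.005 between Th1 and Th17, and not every library correlated best with its own number, so the replicate block is given as a hint from the data only. With it, 2 genes were higher and 0 lower in Th17-derived Th1 against Th1, and 18 were higher in Th1 against Th17. Unknown depth limits the precision of low genes such as Abca1, Apoe and Scd1.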
